A study of Drosophila melanogaster with 3 samples.

Results

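Chitin is the sugar polymer of the insect cuticle, and the genes described here make it, anchor it, modify it or cut it. They are 10 genes of Drosophila melanogaster, taken by name from both deposited tables: the chitin synthase gene kkv, the chitin organiser knk, the chitin-binding protein genes Gasp and obst-A, the deacetylase genes serp and verm, and the chitinase genes Cht2, Cht3, Cht5 and Cht7. All 10 were found among 14161 gene names, with 18 of 22738 transcripts, 9 genes in the autosomal table and 1 (obst-A) in the X-linked table. All 10 also passed the minimum used throughout, a mean of at least 1 CPM (counts per 1000000 transcript counts), which 10942 genes passed. Cht3 of the tables is named Cht10 in the current Release 6 annotation.

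Chitin is polymerised at the apical membrane of epidermal, tracheal and some gut cells from an activated amino sugar, UDP-N-acetylglucosamine. Outside the cell, chitin-binding proteins arrange the fibres, deacetylases alter their sugars, and chitinases cut them so that an old cuticle can be shed and its sugar reused. At a moult and at pupariation, the steroid hormone ecdysone sets the timing of old cuticle breakdown and new cuticle deposition.

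Total RNA of larvae of the third instar was sequenced from metafemales, which carry an additional X chromosome beside diploid autosomes, from males and from females. The labels name 3 biological repeats for each group and a stock temperature of 20 degrees. The labels give no genotype, stock name, number of larvae in a library or exact age within the instar. The study compared metafemales with normal females, and males add the low end of X dosage.

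Each group has 1 deposited value per transcript, the authors' pooled value. It is given here in CPM, the deposited fraction of all transcript counts multiplied by 1000000. The smallest values were sums of whole multiples of 3 step sizes in each column, which gives inferred library totals of 69.0 to 112 M transcript counts in metafemales, 31.6 to 92.4 M in males and 65.6 to 89.2 M in females. Intervals below are 95% counting intervals at that depth. They hold no spread between larvae or libraries, so every difference lacks a check against replicates, and no p-value is given. In RNA from whole larvae, fewer cells of a type and less RNA per cell cannot be told apart. The sum of 6 testis markers was 1.11 CPM in metafemales, 178 CPM in males and 1.98 CPM in females.

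In metafemales the chitinase genes Cht5 and Cht3 were the members that stood lowest against females, at 8.74-fold and 3.02-fold lower. Cht7, serp, obst-A and verm stood above their female values by 1.503-fold to 1.86-fold, and Gasp and kkv lay within 1.08-fold. Calls were set at a 2-fold change on CPM + 1, a scale on which low genes appear to change less than they do. By this rule 2 of 10 members were lower, 0 were higher and 8 lay within 2-fold, where 10.9% of all kept genes were called lower and 4.81% higher. Among the 5959 genes averaging 10 CPM or more, as all members do, the shares were 13.8% lower and 5.52% higher. The median log2 fold change was 0.07 over the 10 members and -0.22 over all kept genes.

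The calls of higher genes turned on the scaling. Metafemale values as deposited lie low for most genes, and scaling by the median of ratios raised the metafemale to female ratio by 0.41 on the log2 scale, while scaling on autosomal genes raised it by 0.46. The all-gene median then stood at 0.01 and 0.04. Cht3 and Cht5 were called lower under both scalings, where 4.36% and 4.15% of all kept genes were called lower. The number of members called higher was 3 with median-of-ratios scaling (Cht7, serp and obst-A) and 4 with autosomal scaling, which added verm. Of all kept genes 8.91% and 9.5% were called higher under these scalings. The sign of every member's log2 fold change was the same under the deposited values and both scalings.

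**Figure D1:**
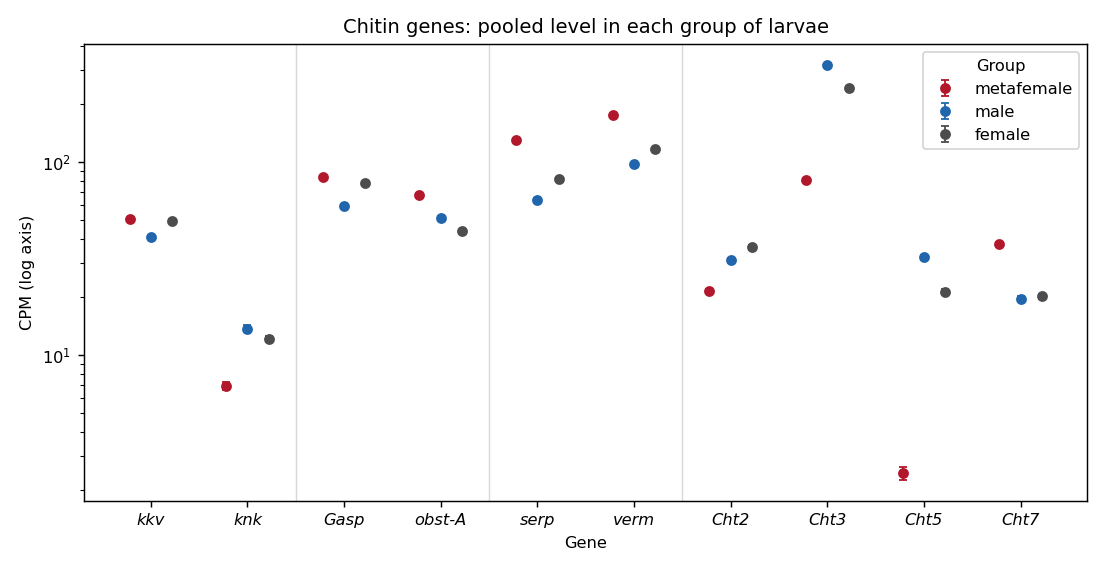
Pooled level of each of the 10 genes in CPM (log axis) in metafemales, males and females, with error bars for the 95% counting interval, which mostly lies inside the symbol. The metafemale point is the lowest of the 3 for knk, Cht2, Cht3 and Cht5 and the highest for the other 6 genes.

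The chitin synthase kkv had 50.9 CPM in metafemales, 41.2 CPM in males and 49.7 CPM in females. As deposited, the metafemale to female ratio of 1.03 had an interval of 0.9997 to 1.05, so both groups lay within counting error. This rests on the scaling: the log2 fold change was 0.04 as deposited, 0.44 with median-of-ratios scaling and 0.49 with autosomal scaling. The male value was 0.829 of the female level (0.804 to 0.854), with log2 fold changes of -0.26, -0.30 and -0.25 in the same order. The table lists 3 kkv transcripts, whose metafemale to female ratios ran from 1.03 to 1.04. Counts of one transcript may include reads shared with the others, so they are not taken as separate measurements.

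Knickkopf (knk), which organises new chitin and in the beetle Tribolium protects it from chitinases, had 6.97 CPM in metafemales, 13.8 CPM in males and 12.2 CPM in females. It was 1.75-fold lower in metafemales than in females (1.65 to 1.86) and so within 2-fold, with a log2 fold change of -0.73 as deposited, -0.36 with median-of-ratios scaling and -0.32 with autosomal scaling. The synthase and its organiser therefore did not share 1 ratio. The metafemale to female ratio of kkv exceeded that of knk by 1.79 times (1.68 to 1.91), a figure that no scaling of whole columns can move.

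Gasp, a secreted chitin-binding protein of the tracheal lumen and cuticle, had 84.3 CPM in metafemales, 59.5 CPM in males and 78.2 CPM in females for the transcript with the higher mean. The other listed transcript had 51.2 CPM in metafemales, 38.6 CPM in males and 58.2 CPM in females. As deposited, the direction against females depended on the transcript: the metafemale to female ratio was 1.08 for the first and 0.8796 for the second. The second had a log2 fold change of -0.18, and the other scalings raise such ratios by 0.41 and 0.46. Both transcripts therefore lay above females under either other scaling. The value of the first transcript minus that of the second was 33.1 CPM in metafemales, 20.9 CPM in males and 20.0 CPM in females. Whether this difference is of reads particular to the first transcript was not tested. Males were the lowest group by either transcript.

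Obst-A, a chitin-binding scaffold protein of the epidermal cuticle, had 67.4 CPM in metafemales, 51.7 CPM in males and 44.0 CPM in females. It was the X-linked member, and its metafemale to female ratio was 1.53 (1.49 to 1.57). Its log2 fold change of 0.60 compares with a median of 0.03 over 1734 kept X-linked genes, whose middle 50% ran from -0.23 to 0.38. Males stood 1.17-fold above females (1.14 to 1.21), a log2 fold change of 0.23 against an X-linked median of -0.19.

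Serpentine (serp) and vermiform (verm) encode secreted chitin deacetylases that limit the length of tracheal tubes in the embryo. Serp had 131 CPM in metafemales, 64.1 CPM in males and 81.5 CPM in females. Verm had 176 CPM in metafemales, 97.9 CPM in males and 117 CPM in females. Both were highest in metafemales and lowest in males, with metafemale to female ratios of 1.602 (1.57 to 1.63) for serp and 1.503 (1.48 to 1.53) for verm. The difference between these ratios was small, at 1.07 times (1.04 to 1.09), but larger than counting error. For verm 6 transcripts are listed, and their ratios ran from 1.496 to 1.509. The genes lie next to each other on chromosome arm 3L on the same strand.

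Among chitinases, Cht5, which in other insects degrades old cuticle at the moult, had 2.45 CPM in metafemales, 32.2 CPM in males and 21.4 CPM in females. It was 8.74-fold lower in metafemales than in females (8.06 to 9.50), with a log2 fold change of -2.70. Of all kept genes 70, or 0.640%, had a lower log2 fold change. Metafemales stood apart from the other 2 groups, which differed from each other by 1.504-fold.

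Cht3, a large multidomain chitinase, had 80.9 CPM in metafemales, 318 CPM in males and 244 CPM in females. It was 3.02-fold lower in metafemales than in females (2.97 to 3.07), with a log2 fold change of -1.58. Of all kept genes 300, or 2.74%, had a lower one. As for Cht5, males were the highest group.

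The 2 remaining chitinase members went different ways. Cht2 had 21.5 CPM in metafemales, 31.3 CPM in males and 36.3 CPM in females, 1.69-fold lower in metafemales than in females (1.63 to 1.75). Cht7, a chitinase with a membrane-bound form in other insects, had 37.7 CPM in metafemales, 19.6 CPM in males and 20.2 CPM in females. It had the largest metafemale to female ratio of the 10 members, 1.86 (1.80 to 1.93), which passed 2-fold with median-of-ratios scaling (log2 1.27) and autosomal scaling (1.31) but not as deposited (0.86). Male and female Cht7 levels lay within counting error of each other.

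Ratios between members do not depend on how a column is scaled. In order of their metafemale to female ratio the members ran Cht7, serp, obst-A, verm, Gasp, kkv, Cht2, knk, Cht3 and Cht5. Of the neighbours in this order, obst-A and verm (1.02 times, 0.990 to 1.05) and Cht2 and knk (1.04 times, 0.969 to 1.11) did not differ beyond counting error, and each other neighbouring pair did. The place of Gasp rests on its transcript with the higher mean, since the other one, with a ratio of 0.8796, falls below kkv. The extremes were chitinases at both ends: the ratio of Cht7 exceeded that of Cht5 by 16.3 times (14.9 to 17.8) and that of Cht3 by 5.62 times (5.41 to 5.84). The ratio of the synthase kkv exceeded that of Cht5 by 8.96 times (8.23 to 9.76).

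**Figure D2:**
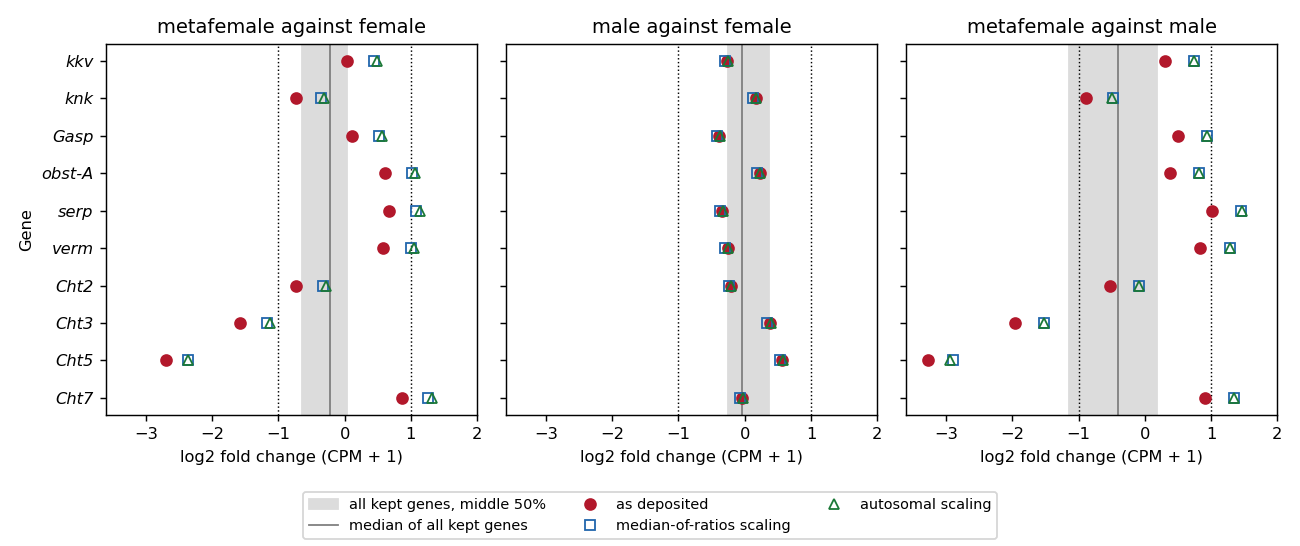
Log2 fold change on CPM + 1 of each gene in the 3 comparisons as deposited and with both other scalings, with dotted lines at 2-fold. The median and middle 50% of all kept genes, in grey, are of the deposited values only. They do not move with the points of the other scalings. Cht5 and Cht3 lie beyond the lower line in both panels with metafemales under each scaling, and every male against female point lies inside the lines.

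No member differed by 2-fold between males and females. The count was 0 of 10, where 15.3% of all kept genes were called higher and 1.96% lower (15% and 2.01% with median-of-ratios scaling, 15.3% and 1.9% with autosomal scaling, and again no member). Among the 5959 genes averaging 10 CPM or more, as all members do, 5.29% were called higher and 2.37% lower. The median was -0.13 over the members and -0.04 over all kept genes. The largest departures were Cht5, 1.504-fold higher in males (1.45 to 1.56), Gasp, 1.31-fold lower (1.28 to 1.35), and Cht3, 1.30-fold higher (1.29 to 1.32). Serp was 1.27-fold and verm 1.20-fold lower in males. Over the 10 members the extremes, Cht5 and Gasp, lay 1.98 times apart (1.89 to 2.07).

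Against males, metafemales had serp at least 2-fold higher and Cht3 and Cht5 at least 2-fold lower, with 7 members within 2-fold. Of all kept genes 8.61% were called higher and 28.6% lower, as were 14.8% and 20.7% with median-of-ratios scaling and 15% and 20.9% with autosomal scaling. Among genes averaging 10 CPM or more, the shares as deposited were 10.4% higher and 20.4% lower. Cht5 was 13.2-fold lower (12.1 to 14.3) and Cht3 was 3.93-fold lower (3.87 to 3.99). These ranks were less extreme than those against females. Of all kept genes 733, or 6.70%, had a lower log2 fold change than Cht5, and 1648, or 15.1%, a lower one than Cht3. The ratio for serp was 2.04 (1.99 to 2.08), followed by Cht7 at 1.92 and verm at 1.80, both of which passed 2-fold with either other scaling. This comparison shares its metafemale column with the first and its male column with the second, so it is independent of neither. The median was 0.34 over the members and -0.40 over all kept genes.

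The supply of the precursor sugar was within 2-fold for most of its genes in metafemales against females. For this and the lists that follow, 4.81% of all kept genes were higher and 10.9% lower as deposited. These shares were 8.91% and 4.36% with median-of-ratios scaling, and 9.5% and 4.15% with autosomal scaling. X-linked genes were called higher more often. Of 1734 kept X-linked genes, 134 were higher and 58 lower as deposited. The counts were 264 and 33 with median-of-ratios scaling, and 290 and 32 with autosomal scaling. Of 8 kept genes of 9 listed 1 was higher (2 and 3 with median-of-ratios and autosomal scaling), 0 were lower and 7 lay within 2-fold, with a median of 0.32 as deposited, 0.73 and 0.77 after median-of-ratios and autosomal scaling. The higher gene was Pgi, the phosphoglucose isomerase shared with glycolysis, at 242 CPM in metafemales and 115 CPM in females. The pyrophosphorylase gene mmy, which makes the activated sugar itself, had 67.7 CPM in metafemales and 51.1 CPM in females, with a log2 fold change of 0.40. The amidotransferase genes that open this branch of metabolism, Gfat1 (-0.02) and Gfat2 (-0.09), lay near 0.

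Of 7 names listed as synthase partners and assembly factors 4 genes were matched, and 1 was lower, 0 higher and 3 within 2-fold (median 0.05 as deposited, 0.43 and 0.47 after median-of-ratios and autosomal scaling). The lower gene was the X-linked rtv, a membrane protein needed for chitin fibre order, at 4.87 CPM in metafemales and 12.7 CPM in females, but it lay within 2-fold with median-of-ratios scaling (log2 -0.86). The second chitin synthase of the fly (CS-2 in the tables, now Chs2), used in the gut, had 14.1 CPM in metafemales and 11.998 CPM in females.

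Other deacetylases went both ways. Of 4 matched genes 1 was higher (2 with either other scaling), 1 lower and 2 within 2-fold (median 0.64, but 1.03 and 1.08 with these scalings). Cda4, an X-linked deacetylase gene, had 31.4 CPM in metafemales and 15.02 CPM in females, 2.09-fold higher (2.01 to 2.17). ChLD3 had 2.69 CPM in metafemales and 10.3 CPM in females, 3.84-fold lower.

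Among chitinases outside the members, Cht12 passed the minimum through its male value alone and is left out of the count. Of the other 4 kept genes 1 was higher, 1 lower and 2 within 2-fold, with a median of -0.83 as deposited and -0.47 with median-of-ratios scaling. The X-linked Cht6 had 86.7 CPM in metafemales and 42.5 CPM in females, 2.04-fold higher (1.99 to 2.09). Cht9 had 17.95 CPM in metafemales, 24.2 CPM in males and 78.1 CPM in females, so that it was lower in both other groups than in females, unlike Cht5 and Cht3.

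Chitinase-like growth factors keep the chitinase fold but lack catalytic activity. Among the 6 genes, 2 passed 2-fold upward, 0 downward and 4 neither (median 0.07 as deposited, 0.47 and 0.52 after median-of-ratios and autosomal scaling). The X-linked Idgf4 had 440 CPM in metafemales and 197 CPM in females, and Chit (now Idgf6) had 324 CPM in metafemales and 139 CPM in females. The hexosaminidases, a family with members that split the fragments left by chitinases, had 0 of 3 genes called (median 0.11). With median-of-ratios and autosomal scaling 1 was higher and the median was 0.50 and 0.55. In the list of other chitin-binding proteins 1 of 10 genes passed 2-fold upward (2 with either other scaling) and 0 downward, and the median was -0.11 as deposited but 0.30 and 0.34 with the other scalings. The higher gene was the X-linked Peritrophin-A, the right-hand neighbour of obst-A, at 36.6 CPM in metafemales and 17.3 CPM in females.

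**Figure D3:**
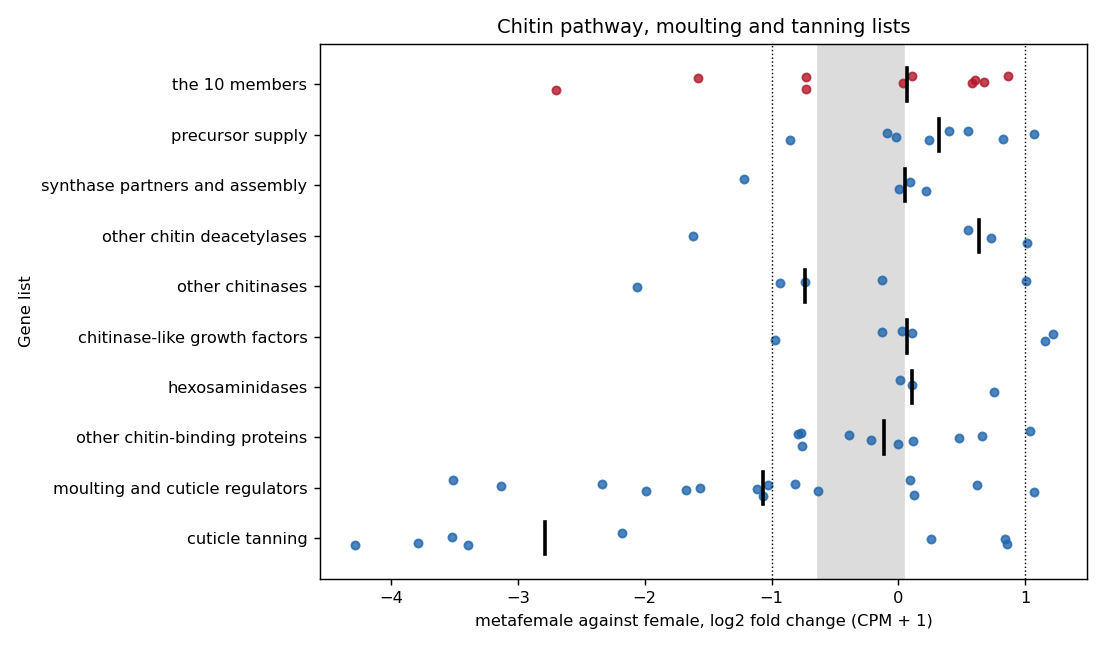
Log2 fold change on CPM + 1 of metafemales against females for the kept genes of each list, as deposited, with a black bar at the list median, the middle 50% of all kept genes in grey and dotted lines at 2-fold. The tanning list has its median at -2.79 and the moulting list at -1.07, while the 10 members have theirs at 0.07.

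Genes that regulate moulting and genes of cuticle tanning had the lowest medians of the 9 pathway lists. Other lists also had medians below that of the 10 members, such as other chitinases (-0.83 without Cht12) and other chitin-binding proteins (-0.11). Of 15 regulators 9 were lower, 1 higher and 5 within 2-fold in metafemales against females (median -1.07), where 10.9% of all kept genes were lower and 4.81% higher. With median-of-ratios and autosomal scaling 6 were lower, 1 and 2 were higher, and the median was -0.68 and -0.64. The shares of all kept genes were then 4.36% and 4.15% lower, and 8.91% and 9.5% higher. Without rib, which passed the minimum through its male value alone, 9 of 14 regulators were lower as deposited (median -1.09). The nuclear receptor genes Hr4, which is X-linked (1.16 CPM in metafemales and 23.6 CPM in females), Eip78C (1.18 CPM in metafemales and 18.2 CPM in females) and Hr46, now Hr3 (0.593 CPM in metafemales and 7.05 CPM in females) were lowest. Hr38 was the higher gene (4.77 CPM in metafemales and 1.75 CPM in females). Of 8 kept tanning genes 5 were lower, 0 higher (2 with either other scaling) and 3 within 2-fold (median -2.79). The lowest were the tyrosine hydroxylase gene ple (6.37 CPM in metafemales and 143 CPM in females), the dopa decarboxylase gene Ddc (10.8 CPM in metafemales and 163 CPM in females) and e, ebony (1.10 CPM in metafemales and 23.0 CPM in females). In males against females 3 of 14 regulators (again without rib) and 3 of the 8 tanning genes were higher and 0 were lower, where 15.3% of all kept genes were called higher. Of these, ple had 556 CPM and ebony 218 CPM in males. The part of these genes in the Cht3 and Cht5 values was not tested.

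Markers of the tissues that lay down cuticle were read for the same groups. In metafemales against females 10.9% of all kept genes were called lower and 4.81% higher as deposited. With median-of-ratios scaling these shares were 4.36% and 8.91%, and with autosomal scaling 4.15% and 9.5%. The 6 tracheal markers all lay within 2-fold in metafemales against females (median -0.67, but -0.27 with median-of-ratios scaling). Their summed level was 161 CPM in metafemales, 241 CPM in males and 258 CPM in females. The largest parts were uif (69.6 CPM in metafemales and 118 CPM in females) and pio (59.3 CPM in metafemales and 89.4 CPM in females). Of 5 kept larval cuticle markers 1 was lower, 0 were higher (1 with either other scaling) and 4 lay within 2-fold, with sums of 4384 CPM in metafemales, 10111 CPM in males and 4890 CPM in females. Only 2 of 6 prepupal and pupal cuticle markers passed the minimum. Both were lower (1 with either other scaling), and the list summed to 32.9 CPM in metafemales, 333 CPM in males and 398 CPM in females. Pcp made up most of each sum, with 29.7 CPM in metafemales, 328 CPM in males and 390 CPM in females. Of the markers under the minimum, Ccp84Ab and Ccp84Aa stood higher in metafemales than in females as deposited. Edg78E stood lower there, and Edg84A lay within counting error.

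The counts of other tissue markers in metafemales against females stand beside the same shares, 10.9% of all kept genes lower and 4.81% higher as deposited. Imaginal disc markers had 5 of 10 lower (3 with either other scaling) and 0 higher, summing to 85.6 CPM in metafemales, 109 CPM in males and 125 CPM in females. Salivary gland markers, all of them glue (Sgs) genes, had 5 of 6 lower and 0 higher. They summed to 1799 CPM in metafemales, 15087 CPM in males and 10338 CPM in females. They did not share 1 ratio, from 1.96-fold lower for Sgs4 to 34.6-fold lower for Sgs8, so the sum is no measure of the amount of gland. Muscle markers had 5 of 5 higher, summing to 17611 CPM in metafemales, 3296 CPM in males and 4634 CPM in females. Midgut markers had 3 of 7 higher and 0 lower, summing to 2473 CPM in metafemales, 1318 CPM in males and 1450 CPM in females. A large part of the higher metafemale sum was betaTry, with 877 CPM in metafemales, 129 CPM in males and 207 CPM in females. Fat body markers had 2 of 6 higher and 1 lower, summing to 32392 CPM in metafemales, 26362 CPM in males and 27465 CPM in females. Lsp1beta, a larval serum protein gene, made up the higher metafemale sum, and without it the sums were 15245 CPM in metafemales, 24857 CPM in males and 23124 CPM in females. Each list had a level above 0 in each group. The part of tissue makeup in the members' values was not tested.

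Genes with the pattern most like that of the 2 called members were sought by distance in the pair of log2 fold changes, metafemales against females and males against females. These rest on 3 pooled columns, which many genes can match. Nearest to Cht3 were Eip74EF at a distance of 0.019, CG7713 (now pasi1) at 0.021 and CG7342 at 0.047. Nearest to Cht5 were ImpE3 at 0.112, Cpr49Ac at 0.124 and Hsp67Bc at 0.167. Cpr49Ac had 212 CPM in metafemales, 2235 CPM in males and 1504 CPM in females.

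By the Release 6 annotation, kkv, knk, Cht5 and Gasp lie on arm 3R, Cht2, Cht7, serp and verm on 3L, Cht3 on 2L and obst-A on the X. Chromosome neighbours did not always share a direction. CG9297, next to Cht5 on the same strand, had 302 CPM in metafemales, 33.8 CPM in males and 56.5 CPM in females, a log2 fold change of 2.40 beside the -2.70 of Cht5. Both kkv and Cht2 overlap another coding gene, and reads there may be shared or dropped. The synthase gene kkv overlaps CG14668 (0.099 CPM in metafemales, 6.33 CPM in males and 0.170 CPM in females), and Cht2 overlaps CG13921 on the other strand (3.97 CPM in metafemales, 10.2 CPM in males and 9.95 CPM in females).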

How the data were processed

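Total RNA was sequenced after TRIzol extraction and TruSeq library preparation, per the labels. The submitters' processing notes name TopHat, HTSeq and build dm3, with no versions, and neither they nor the labels give the annotation or the use of strand in counting. The authors deposited fractions of each group's transcript counts, 1 column per group, summing to 1 over both tables. A column was taken to average 3 libraries, each scaled to its own total, since 99.9% of 2170 metafemale, 100% of 981 male and 100% of 1749 female values below 0.05 CPM were whole combinations of 3 steps (relative tolerance 1e-05). After random changes of up to 5% under 1% were. The effective depth was 269 M counts in metafemales, 169 M in males and 226 M in females. There are no molecular identifiers, so counts are of reads and not of molecules.

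The transcript with the highest mean stood for its gene. Release 6 gave current symbols, arms and neighbours only (21482 transcripts matched by accession, 1145 by name, 111 unmatched). Counting intervals were exact binomial on the ratio of counts, and ratios between genes used a log-normal interval. Python 3.11.15, numpy 2.4.6, pandas 2.3.3 and scipy 1.17.1 were used, and the steps were tested on simulated data. The members, 9 pathway lists and 9 marker lists were chosen with earlier results of these data known. Genes named from a pathway list had to pass 2-fold in metafemales against females as deposited and with median-of-ratios scaling, at most 3 in each direction. List genes named beyond these (mmy, Gfat1, Gfat2, CG1969, CG10627, rtv, CS-2, Cht12 and rib) were chosen after their values were seen. So were the markers named singly and the neighbours. Names not matched in the tables (knk2, knk3 and Cda3) are not analysed here, and Cht1 and Cht10 are current or older names of Cht3.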

Additional observations from a re-analysis of the deposited data

How the results depend on the processing

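No paired analysis was possible because each group has 1 pooled column, and for the same reason no library could be left out. Over 7 alternatives and 1 more chosen after seeing the data (the transcript with the lowest mean for each gene), Cht3 and Cht5 were the members called lower in metafemales against females under each, except that a 1.5-fold threshold gave 4. Members called higher there were 0 as deposited, but 3 with median-of-ratios scaling, 4 with autosomal scaling and 3 at 1.5-fold. Against males they were 1 as deposited and 3, 3 and 3 in these settings. The members' median against females, 0.07 as deposited, was 0.48 with median-of-ratios scaling, 0.52 with autosomal scaling, 0.017 with transcripts summed and -0.071 with the lowest transcript. Against males, 0.34 became 0.78 and 0.78 under the 2 scalings. Of 70 single values of members in each comparison, 2, 0 and 0 changed sign (metafemales against females, males against females, metafemales against males), both of them Gasp, at -0.01 with summed transcripts and -0.18 with the lowest. In males against females 0 of 70 crossed 2-fold.

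Counts over all kept genes moved by over 1.5 times in some settings. In metafemales against females 526 higher and 1188 lower genes became 975 and 477 with median-of-ratios scaling, 1040 and 454 with autosomal scaling and 1022 and 3022 at 1.5-fold, and 329 were higher with a mean of at least 10 CPM. In males against females 1670 higher and 214 lower became 315 and 141 at 10 CPM, and 781 were lower at 1.5-fold. In metafemales against males 942 higher and 3126 lower became 619 and 1215 at 10 CPM, and 1620, 1645 and 1643 were higher with the 2 scalings and at 1.5-fold. Depth does not limit the members, whose lowest effective count was 658 (Cht5 in metafemales), but the unmeasured spread between libraries does.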

Other observations

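Cht12, a chitinase gene, had 0.061 CPM in metafemales, 17.7 CPM in males and 0.163 CPM in females, 109-fold higher in males than in females. It passed the minimum through its male value alone and was singled out after its values were seen. The sum of 6 testis markers was 1.11 CPM in metafemales, 178 CPM in males and 1.98 CPM in females, and the part of testis RNA in the Cht12 value was not tested.

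Within the steps of precursor supply, the acetyltransferase gene CG1969 (now Gnpnat) had the lowest log2 fold change of the 8 kept genes in metafemales against females, with 19.6 CPM in metafemales and 36.2 CPM in females (-0.86, within 2-fold). The mutase gene CG10627 (now nst), which acts on the next step, had 44.5 CPM in metafemales and 37.4 CPM in females.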
